A study of Mus musculus with 18 samples.

Results

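The stress keratin genes Krt6a, Krt6b, Krt16 and Krt17 were followed through ribosome footprints and RNA of epidermal basal cells from mouse embryos. They were chosen by symbol, and each of the 4 has a row in a table of 20655 genes counted over coding sequence. All 4 passed the filter on low counts in both kinds of library. Krt6a and Krt6b have almost the same coding sequence, so the sum of their counts, written Krt6a+Krt6b, is given beside each of them.

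Embryos had received a short hairpin RNA by injection in utero at E9.5, and epidermis was collected at E18.5. The first group carried HrasG12V, an activated form of the small GTPase Hras, and the hairpin shEif2b5 against Eif2b5, a subunit of the translation initiation factor eIF2B. The second group carried HrasG12V with the scrambled hairpin shScram, and the third was WT with shScram. Each group had 3 footprint libraries and 3 RNA libraries. The labels give the strain FR-HrasG12V for both HrasG12V groups and a Rosa26 reporter strain that carries ACTB-tdTomato and EGFP for WT, so genotype and strain cannot be told apart. The genotype of WT footprint library 1 is written Rosa26. No group of WT embryos with shEif2b5 was analysed here, and the labels name no promoter or Cre. Every embryo group shared the injection, a cycloheximide treatment that holds ribosomes on mRNA, dispase and trypsin. The labels do not say whether a footprint and an RNA library with the same number share cells, and no pairing is assumed. Whether the libraries of 1 group stem from different animals is not labelled, so the p-values reflect library-to-library spread, which may be technical.

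Keratins are the intermediate filament proteins of epithelial cells, and each filament pairs a type II with a type I keratin. Basal epidermal cells use Krt5 with Krt14 and suprabasal cells Krt1 with Krt10, while the type II genes Krt6a and Krt6b and the type I genes Krt16 and Krt17 are best known for their induction in wounded, inflamed or hyperproliferative epidermis. In healthy mouse skin they are made mainly in hair follicles, nails and the tongue, and Krt17 also marks the hair placode of the embryo. Keratin 17 binds 14-3-3 sigma in mouse keratinocytes and affects their growth and protein synthesis.

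Krt6b (ENSMUSG00000023041.7) lies on the minus strand of mm10 at chr15:101676023-101680287, and Krt6a (ENSMUSG00000058354.7) lies 9622 bases away at chr15:101689910-101694307 on the same strand. Both genes have 9 exons, with coding lengths of 1662 and 1659 bases for Krt6b and Krt6a. Over 1659 aligned coding bases the pair differed at 37, an identity of 97.8%, and the longest run without a difference was 280 bases. The stretch in which they differ most, coding bases 787 to 876 counted from 1 at the A of the start codon, is shown because only reads that cross such bases tell the genes apart. Capitals mark the 12 bases that differ.
Krt6a: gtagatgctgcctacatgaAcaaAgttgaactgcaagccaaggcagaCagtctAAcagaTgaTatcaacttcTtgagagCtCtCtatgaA
Krt6b: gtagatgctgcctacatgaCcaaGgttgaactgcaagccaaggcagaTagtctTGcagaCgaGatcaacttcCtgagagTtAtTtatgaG

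Krt16 (ENSMUSG00000053797.10) lies at chr11:100246091-100248902 and Krt17 (ENSMUSG00000035557.9) at chr11:100256217-100261029, both on the minus strand of mm10, with 7314 bases between them and 8 exons each. Their coding lengths are 1407 bases for Krt16 and 1299 for Krt17, and they were 80.5% identical over 1255 aligned bases. The 90 bases in which these 2 genes are most alike, coding bases 346 to 435 of Krt16 and 259 to 348 of Krt17, follow with their 4 differing bases in capitals.
Krt16: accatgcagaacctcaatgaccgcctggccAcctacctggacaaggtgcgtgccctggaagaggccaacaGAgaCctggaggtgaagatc
Krt17: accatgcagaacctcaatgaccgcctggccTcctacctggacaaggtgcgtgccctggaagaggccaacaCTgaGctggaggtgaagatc

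How much of each gene can be counted by itself was measured by cutting its coding sequence into every 28-base window, about the length of a footprint, and looking for each window in all other annotated mouse transcripts. In Krt6a, 83.0% of 1632 windows also occurred in another gene, 69.4% in Krt6b, 22.3% in the predicted gene Gm5478 and 13.3% in Krt5. In Krt6b the share was 78.1% of 1635 windows. Krt16 shared 60.7% of its windows, 37.5% with the predicted gene Gm11597 and 23.7% with Krt14, and Krt17 shared 22.2%, 16.5% with Krt14. With 40-base windows the shares were 79.0% for Krt6a, 72.4% for Krt6b, 49.3% for Krt16 and 10.8% for Krt17. How reads with several matches were counted is not given in the sources used here, so levels of Krt6a, Krt6b and Krt16 relative to other genes, and the split between Krt6a and Krt6b, are uncertain, and adding the 2 genes does not bring back reads that were dropped.

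**Figure D1:**
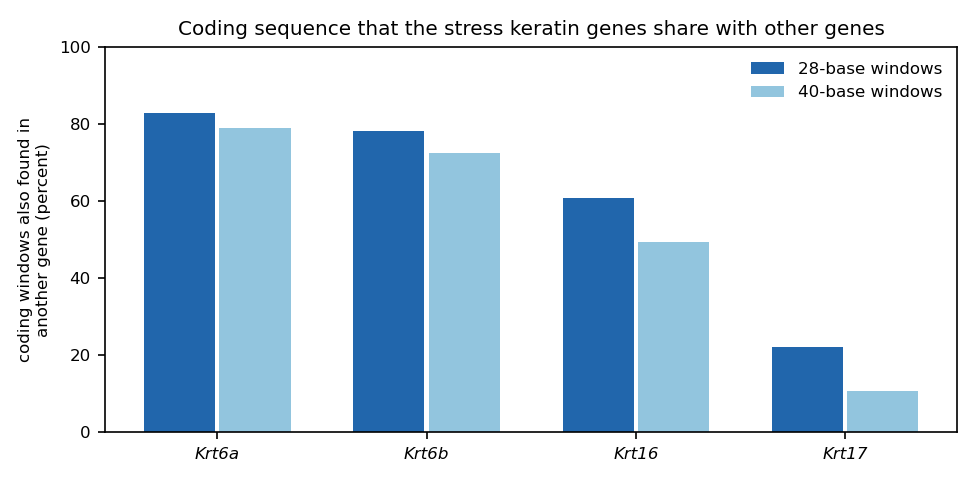
The bars give the percent of coding windows of each gene that also occur in another annotated transcript, for windows of 28 bases (dark) and 40 bases (light). Krt6a and Krt6b share most of their coding sequence (83.0% and 78.1% of 28-base windows), Krt17 the least (22.2%).

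Total counts ran from 1771365 to 5505386 in RNA and from 3319175 to 4933298 in footprints. Eif2b5 stood at 134, 128 and 143 CPM (counts scaled to a common library size after TMM normalization) in RNA of the HrasG12V shEif2b5 libraries, against 127, 388 and 145 CPM in HrasG12V shScram. In footprints it stood at 82.7, 78.5 and 95.4 CPM in HrasG12V shEif2b5, against 91.9, 93.1 and 102 CPM in HrasG12V shScram. Neither difference passed the test (edgeR adjusted p = 0.257 in RNA and 0.994 in footprints). Footprint library 1 of HrasG12V shEif2b5 stood apart from the other two of its group: its Krt1 level was 14254 CPM, against 40864 and 42610 CPM in libraries 2 and 3, and its Krt10 level was 5495 CPM, against 23435 and 20813 CPM. RNA libraries 1 and 3 of HrasG12V shScram and 3 of WT shScram were deeper, with 4310239 to 5505386 counts, than the other 6, with 1771365 to 2812627, among them all 3 of HrasG12V shEif2b5.

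The samples are labelled as basal cells, and the basal integrin and laminin genes were present in every library, but the suprabasal keratins Krt1 and Krt10 were the most abundant keratin genes in all 6 groups. Per kilobase of coding sequence, Krt1 averaged 15075 CPM, Krt10 13775 CPM, Krt5 4437 CPM and Krt14 1873 CPM in RNA of HrasG12V shEif2b5. The stress keratins therefore stand here beside markers of more than the basal layer. In bulk samples a change in the share of cells that make a gene and a change in RNA per cell cannot be told apart.

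Per coding kilobase, Krt17 was the highest of the 4 genes in every group, followed by Krt16. Krt17 averaged 1663 ± 280 CPM per kilobase in RNA of HrasG12V shEif2b5, 1045 ± 94.8 in HrasG12V shScram and 1148 ± 350 in WT shScram (SD, n = 3 here and below), which gave it rank 5, 5 and 6 among 50 keratin genes. It did not differ from Krt14 beyond their spread in the HrasG12V groups, where Krt14 averaged 1873 ± 252 and 1187 ± 154 CPM per kilobase. Krt16 averaged 273.5 ± 41.8 CPM per kilobase in HrasG12V shEif2b5, 113 ± 27.9 in HrasG12V shScram and 45.5 ± 7.83 in WT shScram. That put it at rank 8, 8 and 14 of the 50 keratins.

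The Krt6 genes were the lowest of the 4, and their order differed between groups. Krt6b averaged 82.5 ± 5.44 CPM per kilobase of RNA in HrasG12V shEif2b5, 22.2 ± 8.54 in HrasG12V shScram and 3.07 ± 0.653 in WT shScram. Krt6a averaged 28.5 ± 12.5 CPM per kilobase in HrasG12V shEif2b5, 10.3 ± 1.65 in HrasG12V shScram and 4.90 ± 1.25 in WT shScram. Krt6b thus moved to rank 10 among the keratins in HrasG12V shEif2b5, against rank 17 in HrasG12V shScram and rank 30 in WT shScram. When only windows found in no other gene were counted as length, an effective length chosen after the data were seen, the RNA levels in HrasG12V shEif2b5 became 2182.1 for Krt17, 710.1 for Krt16, 383 for Krt6b and 171 for Krt6a, in CPM per unshared kilobase, in the same order.

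**Figure D2:**
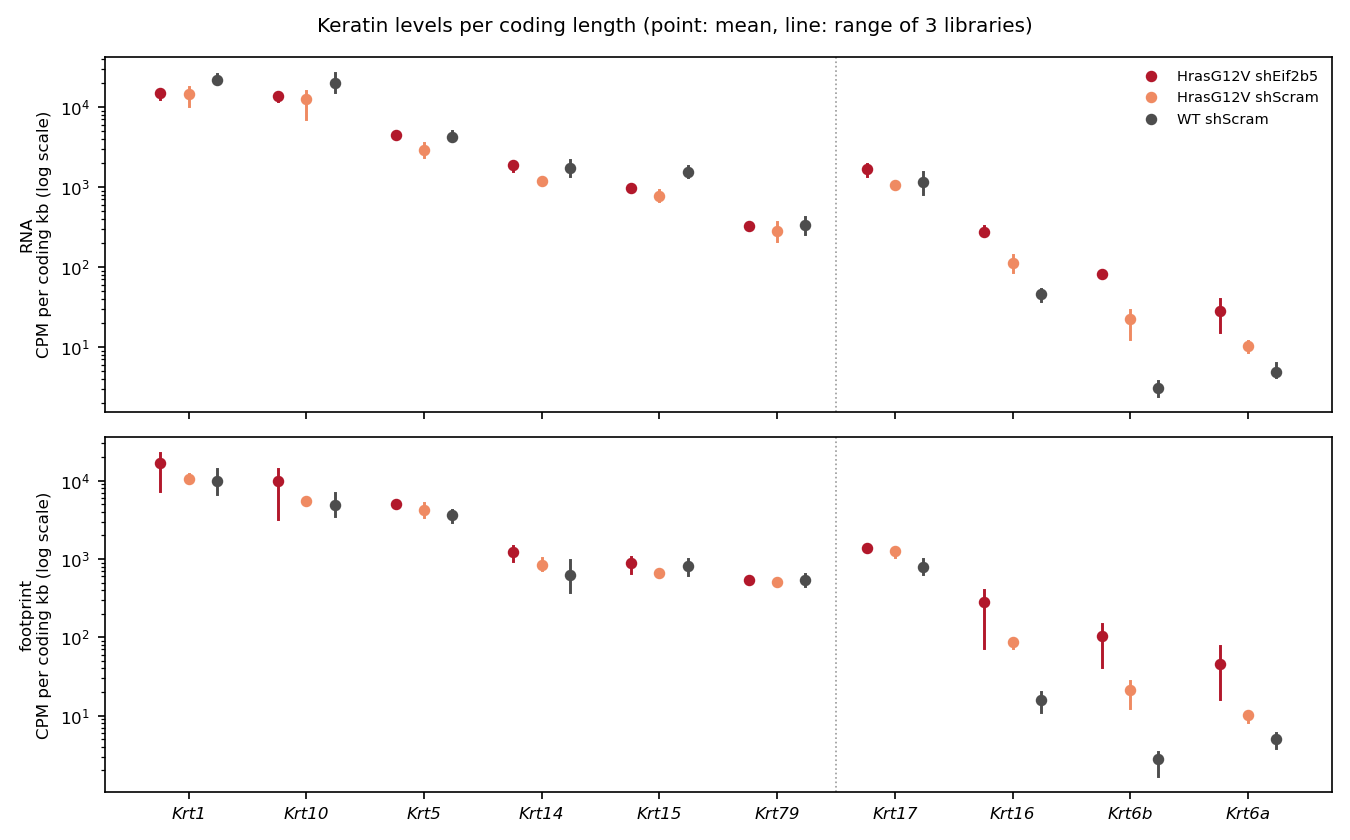
Levels of 10 keratin genes in CPM per coding kilobase on a log scale, in RNA (top) and footprints (bottom), with the 3 conditions side by side; points are means and lines the range of 3 libraries. The stress keratins stand right of the dotted line. Krt16, Krt6b and Krt6a are lowest in WT shScram. Krt17 lies between Krt14 and Krt15 in RNA of the HrasG12V groups, and above both in footprints of HrasG12V shScram. Its mean also lies above both in footprints of HrasG12V shEif2b5, where its range overlaps that of Krt14.

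Among the stress keratins Krt6b had the widest range of RNA levels. It stood at 132, 148 and 132 CPM in the 3 HrasG12V shEif2b5 libraries, at 47.5, 42.2 and 20.7 CPM in HrasG12V shScram, and at 4.05, 6.22 and 5.06 CPM in WT shScram. The 3 groups did not overlap. The WT values rest on 10, 16 and 28 reads, so their counting error is the largest, while the spread between libraries was wider in HrasG12V shScram (highest over lowest 2.29) than in WT shScram (1.54).

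Krt6a followed the same order at lower levels. Its RNA stood at 25.2, 50.4 and 66.2 CPM in HrasG12V shEif2b5, at 14.1, 19.4 and 17.9 CPM in HrasG12V shScram, and at 10.5, 6.99 and 6.87 CPM in WT shScram. Again no groups overlapped, but library 1 of HrasG12V shEif2b5 was closer to the HrasG12V shScram libraries than to its own group. The sum Krt6a+Krt6b stood at 157, 198 and 198 CPM in HrasG12V shEif2b5, 61.7, 61.6 and 38.6 CPM in HrasG12V shScram, with 14.6, 13.2 and 11.9 CPM in WT shScram, again in 3 separate groups.

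Krt16, the type I partner of the keratin 6 proteins, had RNA levels of 342, 361 and 452 CPM in HrasG12V shEif2b5, 199, 159.9 and 120.2 CPM in HrasG12V shScram, with 66.0, 73.8 and 52.1 CPM in WT shScram. Its 3 groups were also separate. Krt17 behaved differently: its RNA stood at 2499, 1777 and 2205 CPM in HrasG12V shEif2b5, at 1215, 1426 and 1432 CPM in HrasG12V shScram, and at 1418, 1077 and 1978 CPM in WT shScram. For Krt17 the HrasG12V shEif2b5 libraries lay above all HrasG12V shScram libraries, but WT shScram overlapped both groups.

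**Figure D3:**
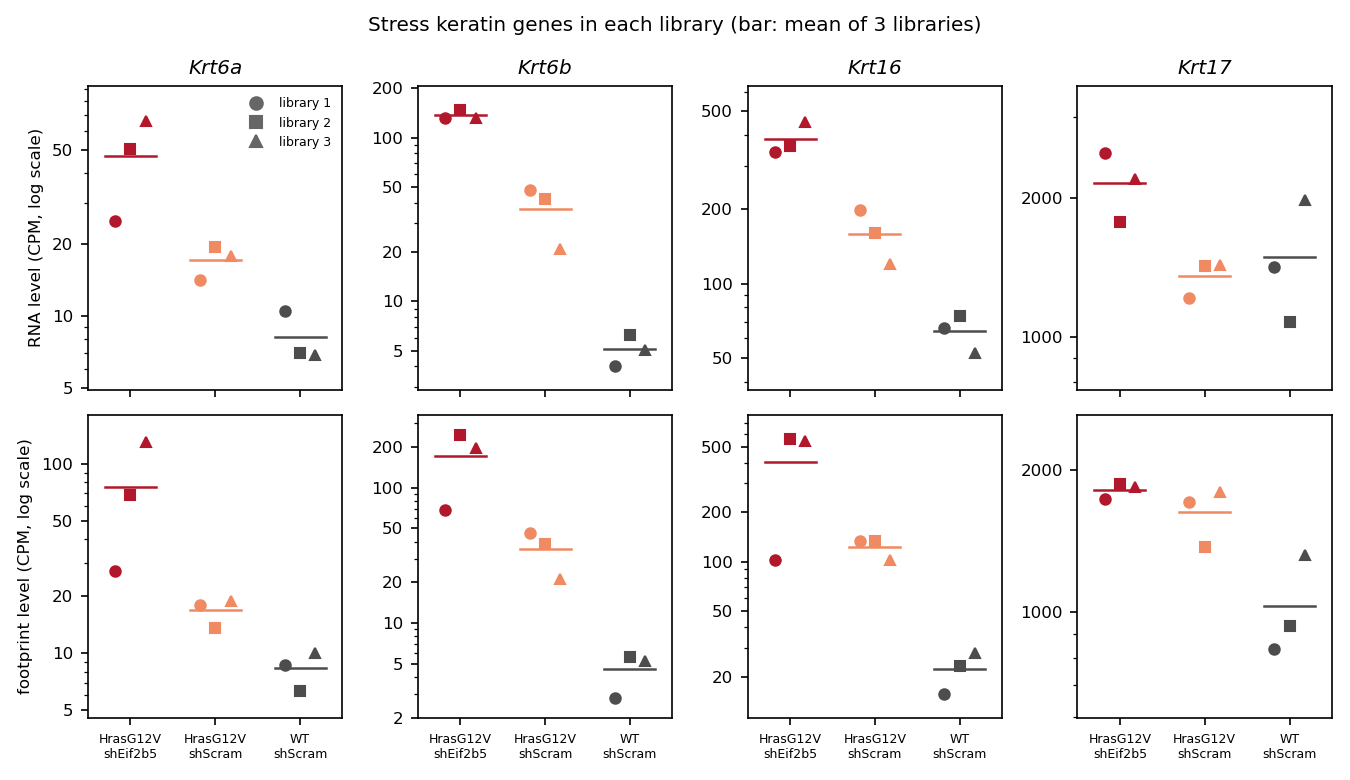
Levels of the 4 stress keratin genes in CPM on log scales that differ between panels, in RNA (top) and footprints (bottom); each symbol is 1 library and each bar the mean of 3. Krt6a, Krt6b and Krt16 step down across the conditions in RNA, and the circle of HrasG12V shEif2b5 in footprints (library 1) lies far below the other two for these 3 genes but not for Krt17.

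HrasG12V shScram was set against WT shScram to ask what activated Hras goes with. In RNA, Krt6b rose 7.09-fold (log2 2.83, SE 0.30, adjusted p = 0.000147) and Krt16 rose 2.52-fold (log2 1.33, SE 0.19, adjusted p = 0.000944). The sum Krt6a+Krt6b rose 4.09-fold (log2 2.03, SE 0.21, adjusted p = 6.81e-05). Krt6a missed the threshold at 2.12-fold (95% interval 1.30 to 3.45, adjusted p = 0.0555), and Krt17 was 0.91-fold (0.679 to 1.22, adjusted p = 0.709). Krt6a passed in fits without HrasG12V shEif2b5 library 1 (adjusted p = 0.0231) or 3 (0.0484). So 2 of the 4 genes were called, both higher, where 7.7% of 11096 genes were called and 4.65% were called higher. In 3 of the 4 the HrasG12V shScram libraries all lay above the WT libraries, which held for 13.7% of genes. The median log2 difference of the 4 was 1.21, beside 0.01 over all genes tested.

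Depth differed between these RNA libraries, so the same differences were taken within depth classes, as log2 differences of mean CPM without a test. Krt6a+Krt6b differed by 2.07 among the 3 deeper libraries and by 2.15 among the 3 shallower ones, and Krt16 by 1.61 and 1.19. Krt17 differed by -0.58 in the deeper and 0.19 in the shallower libraries. The deeper class sets 2 HrasG12V shScram libraries against 1 of WT, and the shallower 1 against 2. Each value thus rests on a lone library on 1 side and cannot tell depth from that library.

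HrasG12V shEif2b5 was set against HrasG12V shScram to ask what the hairpin goes with in HrasG12V epidermis. In RNA all 4 genes rose: Krt6b 3.76-fold (log2 1.91, SE 0.23, adjusted p = 0.000512), Krt6a 2.78-fold (log2 1.48, SE 0.29, adjusted p = 0.00633), Krt16 2.41-fold (log2 1.27, SE 0.19, adjusted p = 0.00187) and Krt17 1.59-fold (log2 0.67, SE 0.20, adjusted p = 0.0378). Krt6a+Krt6b rose 3.44-fold (log2 1.78, SE 0.18, adjusted p = 0.000165) and had the smallest p of all genes in that fit. Genes called made up 13% of those tested and genes called higher 5.23%, while 13.4% had groups that did not overlap, with HrasG12V shEif2b5 above, as all 4 members did. The median of the 4 was 1.37, against -0.01 over all genes. Leaving out any 1 of the 9 libraries kept the calls of Krt6b, Krt16 and Krt6a+Krt6b.

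Krt17 was the weakest of these calls. It was lost in 5 of the 9 fits without 1 library, with adjusted p = 0.142 without HrasG12V shEif2b5 library 1, 0.121 without its library 3, 0.138 or 0.0784 when HrasG12V shScram library 1 or 3 was left out, and 0.0533 without WT shScram library 1. With offsets for GC content and coding length Krt17 differed by 0.42 (adjusted p = 0.216). The call for Krt6a was lost without HrasG12V shEif2b5 library 3 (adjusted p = 0.0505). Without HrasG12V shScram libraries 1 and 3 together, which leaves a lone HrasG12V shScram library whose spread is borrowed from the other groups, Krt6a differed by 1.27 (adjusted p = 0.335) and Krt17 by 0.60 (adjusted p = 0.429). Among the 6 shallower libraries, where that 1 library stands alone, the log2 differences were 1.58 for Krt6a+Krt6b, 1.27 for Krt16 and 0.60 for Krt17.

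HrasG12V shEif2b5 against WT shScram differs in genotype, strain and hairpin at once, and it shares libraries with both comparisons above. Krt6b RNA rose 26.7-fold (95% interval 17.4 to 40.7, adjusted p = 1.06e-07), the smallest p of all genes. Krt16 rose 6.06-fold (4.55 to 8.07, adjusted p = 8.13e-07), Krt6a 5.90-fold (3.71 to 9.36, adjusted p = 0.000621) and Krt6a+Krt6b 14.1-fold (10.4 to 19.1, adjusted p = 8.18e-09). Krt17 did not pass at 1.45-fold (1.08 to 1.94, adjusted p = 0.498). Here 3 of the 4 were called, all higher, in a comparison in which 36 of 11096 genes (0.324%) were called and 0.225% were called higher. The HrasG12V shEif2b5 libraries of these 3 genes all lay above WT, as in 7.68% of genes. Each of these calls was kept in the 9 fits without 1 library, with adjusted p up to 0.00991 for Krt6a.

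**Figure D4:**
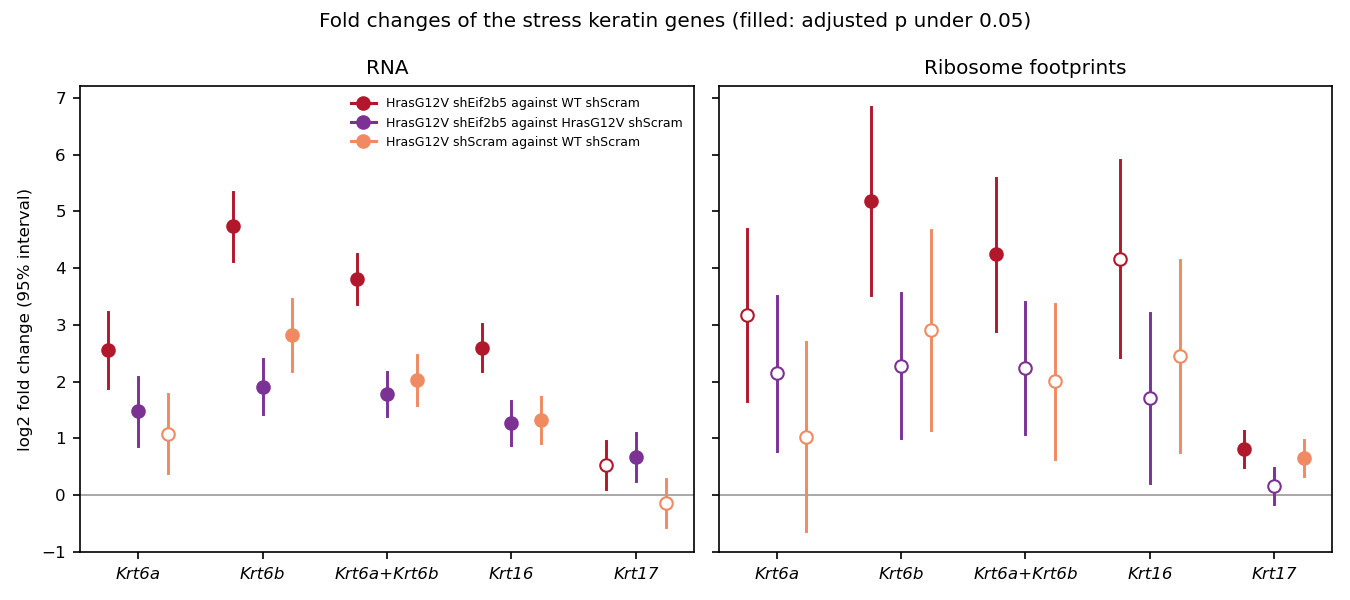
Log2 fold changes of the stress keratin genes with 95% intervals in RNA (left) and footprints (right) for the 3 comparisons; filled points had an adjusted p under 0.05. In RNA the intervals are narrow and the fold changes of Krt6b lead, while in footprints the intervals of Krt6a, Krt6b and Krt16 are several times wider than those of Krt17.

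Footprints, which count ribosomes on coding sequence, gave the same order of groups for the Krt6 genes but with 1 library far from its group. Krt6b footprints stood at 68.8, 246 and 196 CPM in HrasG12V shEif2b5, at 45.9, 38.2 and 21.1 CPM in HrasG12V shScram, and at 2.79, 5.67 and 5.26 CPM in WT shScram. Krt6a footprints stood at 27.2, 68.7 and 129.9 CPM in HrasG12V shEif2b5, against 18.1, 13.7 and 18.8 CPM in HrasG12V shScram, with 8.65, 6.35 and 10.02 CPM in WT shScram. For both genes no groups overlapped, and library 1 was the lowest of the HrasG12V shEif2b5 libraries.

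Krt16 footprints stood at 102, 559.6 and 546 CPM in HrasG12V shEif2b5, at 133, 134 and 103 CPM in HrasG12V shScram, and at 15.6, 23.4 and 27.8 CPM in WT shScram. Library 1 of HrasG12V shEif2b5 thus lay below every HrasG12V shScram library, while its partners lay above all of them. In RNA of HrasG12V shEif2b5, Krt16 stood at 342, 361 and 452 CPM, with no library so far below the others of its group. For Krt6a, RNA library 1 was also the lowest of that group, at 25.2 against 50.4 and 66.2 CPM. Krt17 footprints were even, at 1729, 1864 and 1840.0 CPM in HrasG12V shEif2b5, 1709, 1369 and 1795 CPM in HrasG12V shScram, with 834, 936 and 1319 CPM in WT shScram. Every HrasG12V library of either hairpin lay above every WT library for Krt17, which its RNA did not show.

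For HrasG12V shScram against WT shScram, Krt17 was the 1 member called in footprints. It rose 1.58-fold (log2 0.66, SE 0.15, adjusted p = 0.0303), in a comparison in which 1.7% of 11448 genes were called and 1.23% were called higher. The other three had larger fold changes but were more variable across the 9 libraries: Krt6b 7.49-fold (95% interval 2.21 to 25.4, adjusted p = 0.153), Krt16 5.49-fold (1.70 to 17.8, adjusted p = 0.194), Krt6a 2.04-fold (0.644 to 6.47, adjusted p = 0.586) and Krt6a+Krt6b 4.01-fold (1.56 to 10.3, adjusted p = 0.184). In all 4 genes the HrasG12V shScram libraries lay above the WT libraries, as in 10.4% of genes, and the median log2 difference was 1.74.

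These tests share 1 estimate of the spread over 9 libraries, HrasG12V shEif2b5 library 1 among them. Without that library the same comparison called Krt16 (log2 2.45, adjusted p = 4.6e-07), Krt6b (2.90, adjusted p = 0.00148) and Krt6a+Krt6b (2.00, adjusted p = 2.57e-06). When the 2 conditions were fitted alone, Krt16 (adjusted p = 8.54e-06), Krt6b (0.00124), Krt6a (0.0267) and Krt6a+Krt6b (4.08e-05) were called, and Krt17 was not (0.0607). The Krt17 call was also lost in fits that left out HrasG12V shScram library 1 (0.157) or 3 (0.153) or WT shScram library 1 (0.121) or 2 (0.159).

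Against WT shScram, Krt6b footprints of HrasG12V shEif2b5 rose 36.3-fold (95% interval 11.6 to 114, adjusted p = 0.0333), Krt6a+Krt6b 18.9-fold (7.46 to 48.1, adjusted p = 0.0318) and Krt17 1.76-fold (1.41 to 2.20, adjusted p = 0.0137). Krt16 was 17.96-fold (5.37 to 60.004, adjusted p = 0.069) and Krt6a 9.03-fold (3.17 to 25.7, adjusted p = 0.0908), neither past the threshold. The 2 calls among the 4 genes stand beside 0.97% of genes called and 0.76% called higher. All 4 had every HrasG12V shEif2b5 library above WT, as did 8.32% of genes, and their median was 3.67. The calls of Krt6b and of the sum were each lost in 7 of the 9 fits without 1 library, with adjusted p up to 0.153 and 0.156 (without WT shScram library 1), and that of Krt17 in 4 of 9 (up to 0.0702, without HrasG12V shEif2b5 library 2). Without HrasG12V shEif2b5 library 1 all 4 genes and the sum were called, with Krt16 at 4.62 (adjusted p = 3.47e-11) and Krt6a at 3.58 (adjusted p = 4.49e-06) on the log2 scale. Krt6a was also called without library 3 of that group (2.52, adjusted p = 0.0209).

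Between the HrasG12V groups, shEif2b5 against shScram, no footprint difference was called: 0 of the 4 members and 0% of all genes in either direction, with 519 genes at an unadjusted p under 0.05. The 4 fold changes were 4.85 for Krt6b (95% interval 2.00 to 11.8), 4.42 for Krt6a (1.72 to 11.4), 3.27 for Krt16 (1.15 to 9.26) and 1.12 for Krt17 (0.895 to 1.39), all with an edgeR adjusted p of 0.994. Krt6a+Krt6b was 4.72-fold (2.12 to 10.5, unadjusted p = 0.00284). DESeq2 called 1 gene, not one of the 4, and in the fit with the sum it called Krt6a+Krt6b (log2 2.24, adjusted p = 0.0142). In 2 of the 4 genes, Krt6a and Krt6b, the groups did not overlap, as in 5.5% of genes.

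This outcome depended on library 1 of HrasG12V shEif2b5. Without it Krt16 differed by 2.17 on the log2 scale (adjusted p = 1.38e-06), Krt6a by 2.55 (0.000216), Krt6b by 2.66 (0.000847) and Krt6a+Krt6b by 2.63 (2.82e-08), among 31 genes called. That library had the lowest Krt6a, Krt6b and Krt16 footprints of its group, so leaving it out narrows the spread of these same genes. The p-values of fits without it, in this and the other comparisons, only describe that dependence. In the same library the summed footprints of 11 spinous and granular marker genes were 4708 CPM, against 9090 and 8855 CPM in libraries 2 and 3. Those of 10 basal layer marker genes were 6384 CPM, against 5901 and 4994 CPM. The part of suprabasal content in the low stress keratin values of this library was not tested.

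Because Krt1 and Krt10 moved with that library, the stress keratins were also read as a ratio to Krt10 in the same library, a choice made after the values were seen and given without a test. In footprints Krt16 over Krt10 was 0.0186, 0.0239 and 0.0262 in HrasG12V shEif2b5, 0.0126, 0.0149 and 0.0118 in HrasG12V shScram, and 0.00237, 0.00196 and 0.00460 in WT shScram. On that scale library 1 of HrasG12V shEif2b5 lay above every HrasG12V shScram library, and the 3 groups did not overlap. The ratio of Krt6a+Krt6b to Krt10 was 0.0175, 0.0134 and 0.0157 in HrasG12V shEif2b5, 0.00607, 0.00579 and 0.00458 in HrasG12V shScram, and 0.00174, 0.00101 and 0.00253 in WT shScram, again without overlap. The ratio of Krt6a+Krt6b footprints to the basal keratin Krt5 left library 1 apart: it was 0.0116, 0.0324 and 0.0392 in HrasG12V shEif2b5, 0.0105, 0.00766 and 0.00441 in HrasG12V shScram, and 0.00222, 0.00178 and 0.00207 in WT shScram. With Krt5 as the base, library 1 thus lay just above the HrasG12V shScram libraries and far below the other two of its group.

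In RNA the same ratios also separated the groups. Krt16 over Krt10 was 0.0137, 0.0182 and 0.0183 in HrasG12V shEif2b5, 0.00785, 0.00594 and 0.00998 in HrasG12V shScram, and 0.00219, 0.00165 and 0.00200 in WT shScram. Krt6a+Krt6b over Krt10 was 0.00628, 0.00999 and 0.00801 in HrasG12V shEif2b5, 0.00243, 0.00229 and 0.00321 in HrasG12V shScram, and 0.000483, 0.000295 and 0.000458 in WT shScram.

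**Figure D5:**
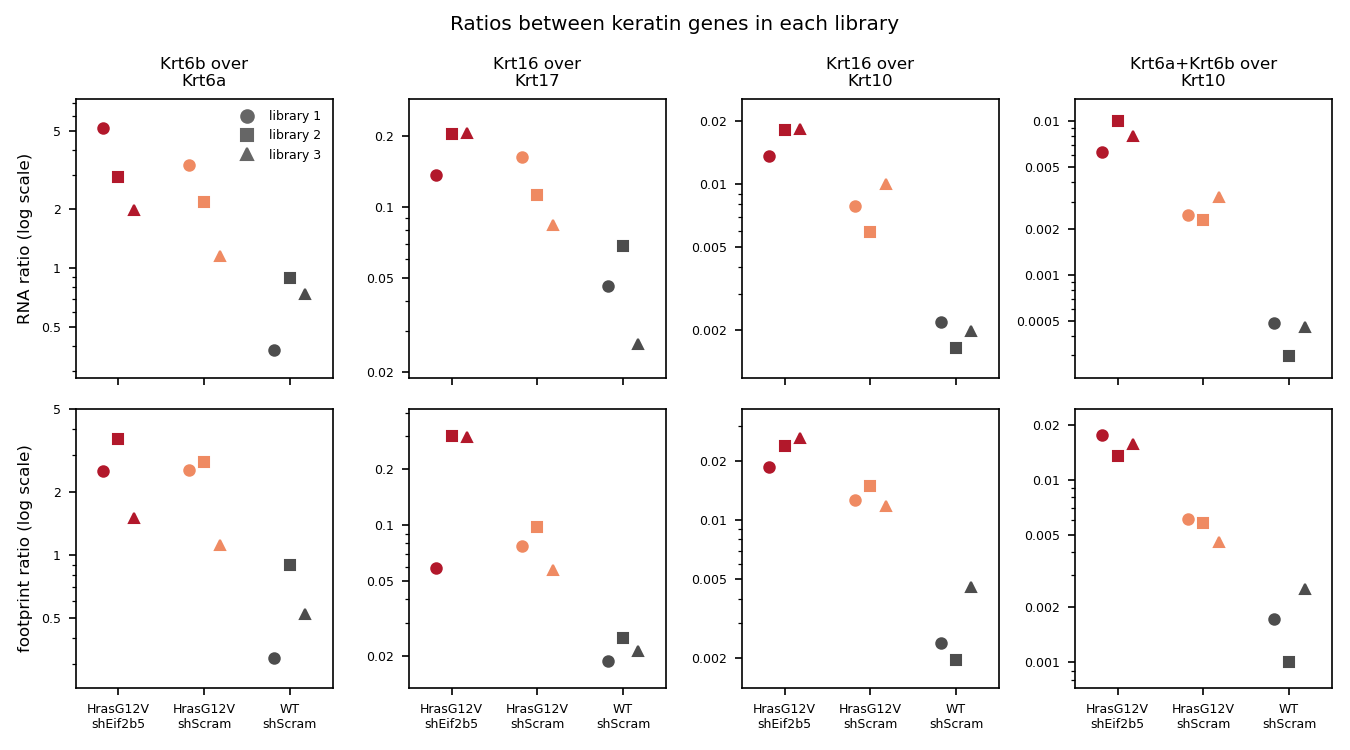
Ratios between keratin genes in every library on log scales, in RNA (top) and footprints (bottom); each symbol is 1 library. Krt6b exceeds Krt6a in every HrasG12V library and in no WT library, and the ratios to Krt10 separate the 3 conditions, with library 1 of HrasG12V shEif2b5 above every library of the other conditions.

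The balance between the 2 Krt6 genes separated both HrasG12V groups from WT shScram without overlap. Krt6b counts over Krt6a counts were 5.24, 2.93 and 1.99 in RNA of HrasG12V shEif2b5, 3.36, 2.17 and 1.16 in HrasG12V shScram, and 0.385, 0.889 and 0.737 in WT shScram. In footprints the ratios were 2.53, 3.58 and 1.51 in HrasG12V shEif2b5, against 2.54, 2.80 and 1.12 in HrasG12V shScram and 0.323, 0.893 and 0.525 in WT shScram. Krt6b therefore gave more reads than Krt6a in each of the 12 HrasG12V libraries and fewer in each of the 6 WT libraries, while the 2 HrasG12V groups overlapped. The log2 difference of the ratio between HrasG12V shScram and WT shScram was 1.69 in RNA and 1.91 in footprints, with an exact permutation p of 0.1 each, the smallest that 3 against 3 allows (0.15 after adjustment over 12 ratio tests). Between HrasG12V shEif2b5 and HrasG12V shScram it was 0.62 in RNA and 0.26 in footprints (exact p = 0.5 and 0.7).

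The type I pair was read in the same way. Krt16 CPM over Krt17 CPM was 0.137, 0.203 and 0.205 in RNA of HrasG12V shEif2b5, 0.164, 0.112 and 0.0840 in HrasG12V shScram, and 0.0465, 0.0686 and 0.0263 in WT shScram. In footprints it was 0.0590, 0.300 and 0.297 in HrasG12V shEif2b5, 0.0778, 0.0976 and 0.0573 in HrasG12V shScram, and 0.0187, 0.0249 and 0.0211 in WT shScram. Each HrasG12V group lay above WT in both kinds of library (exact p = 0.1 each, 0.15 after adjustment), and the HrasG12V groups overlapped (exact p = 0.2 in RNA and 0.3 in footprints).

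As a share of all keratin CPM per coding kilobase, the 4 genes together made up 5.28%, 5.19% and 5.18% in RNA of HrasG12V shEif2b5, 2.86%, 3.14% and 5.004% in HrasG12V shScram, and 2.39%, 1.46% and 3.37% in WT shScram, most of it Krt17. HrasG12V shEif2b5 lay above both other groups in RNA, but in footprints all 3 groups overlapped, at 7.49%, 4.38% and 4.40% in HrasG12V shEif2b5, 5.68%, 5.33% and 6.12% in HrasG12V shScram, and 3.64%, 2.65% and 5.61% in WT shScram. Within type II keratins Krt6a and Krt6b held 0.423%, 0.686% and 0.560% in RNA of HrasG12V shEif2b5, 0.178%, 0.185% and 0.169% in HrasG12V shScram, and 0.0344%, 0.0261% and 0.0287% in WT shScram. On this share of type II keratins the groups did not overlap, but the Krt6 genes were a small share of type II keratin signal in every library. The share of Krt16 and Krt17 within type I keratins overlapped between groups, except between HrasG12V shEif2b5 and WT shScram in RNA. It was 10.6%, 10.02% and 10.1% in RNA of HrasG12V shEif2b5, 5.96%, 6.14% and 11.4% in HrasG12V shScram, and 5.06%, 2.90% and 7.28% in WT shScram. In footprints it was 21.8%, 10.1% and 10.7% in HrasG12V shEif2b5, 15.3%, 14.4% and 16.98% in HrasG12V shScram, and 11.4%, 7.91% and 15.3% in WT shScram.

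Translation efficiency, the footprint level relative to RNA, was tested as the interaction of condition and library kind. None of the 4 genes or the sum was called in any comparison. Of 10793 genes, edgeR called 1.17% in HrasG12V shScram against WT shScram and 2.11% in HrasG12V shEif2b5 against HrasG12V shScram. In HrasG12V shEif2b5 against WT shScram it called 0%, with 634 genes at an unadjusted p under 0.05. For Krt6a+Krt6b the 95% intervals of the fold were 0.398 to 2.43, 0.643 to 2.89 and 0.556 to 3.23 in these comparisons, in that order, so the data do not settle changes of a size inside those intervals.

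Krt17 and Krt16 came nearest to a call. Krt17 was 1.74-fold in HrasG12V shScram against WT shScram (95% interval 1.19 to 2.55, unadjusted p = 0.00633, adjusted p = 0.141) and 0.697-fold in HrasG12V shEif2b5 against HrasG12V shScram (0.476 to 1.02, adjusted p = 0.293). Its call appeared without WT shScram footprint library 3 (log2 1.01, adjusted p = 0.031). Krt16 was 2.96-fold in HrasG12V shEif2b5 against WT shScram (1.04 to 8.43, adjusted p = 0.84), and without footprint library 1 of HrasG12V shEif2b5 it was called, at 2.02 on the log2 scale (adjusted p = 0.000528). Without the same library Krt16 was also called in HrasG12V shScram against WT shScram (1.13, adjusted p = 0.0432).

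Within a condition, log2 of footprint CPM over RNA CPM was 0.06 for Krt16 in HrasG12V shEif2b5, -0.37 in HrasG12V shScram and -1.52 in WT shScram, where 12.1% of 10791 genes lay lower. The suprabasal Krt10 showed a similar run of -0.48 in HrasG12V shEif2b5, -1.19 in HrasG12V shScram and -2.04 in WT shScram. Krt6a+Krt6b stayed near the median of all genes, at 0.41 in HrasG12V shEif2b5, -0.06 in HrasG12V shScram and -0.04 in WT shScram.

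Some other keratins moved with the stress keratins. In RNA of HrasG12V shEif2b5 against HrasG12V shScram, the basal keratins Krt14 (log2 0.66, adjusted p = 0.029) and Krt5 (0.61, adjusted p = 0.042) rose, 2 of 3, by about as much as Krt17. Also higher were the simple keratin Krt19 (1.30, adjusted p = 0.0168), 1 of 5 tested, and the hair follicle keratins Krt25 (0.66, adjusted p = 0.0225), Krt31 (1.53, adjusted p = 0.0402) and Krt83 (1.38, adjusted p = 0.0288), 3 of 15. Of all genes, 13% were called and 5.23% called higher. The values of Krt19, Krt31 and Krt83 were as large as that of Krt16 in this comparison (1.27). None of 5 suprabasal keratins was called. In RNA of HrasG12V shScram against WT shScram, Krt15 (-0.98, adjusted p = 0.004) and Krt7 (-0.87, adjusted p = 0.01) fell, against the rise of Krt6b and Krt16. Krt75 rose with them (0.75, adjusted p = 0.038), and 7.7% of all genes were called. Among the listed keratins, Krt19 was the 1 other called in RNA of HrasG12V shEif2b5 against WT shScram (1.66, adjusted p = 0.0372), where 0.324% of all genes were called. In footprints Krt75 and Krt73 rose and Krt7 fell in HrasG12V shScram against WT shScram (1.7% of all genes called). Krt75 and Krt13 rose and Krt7 fell in HrasG12V shEif2b5 against WT shScram (0.97%). None was called in footprints between the HrasG12V groups, where the suprabasal Krt77 had 9.96, 22.5 and 578.6 CPM per coding kilobase in HrasG12V shEif2b5 against 11.7, 20.5 and 23.9 in HrasG12V shScram.

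Of 11 keratin partners and linkers, Eppk1, which encodes the keratin-bundling protein epiplakin, fell in RNA of HrasG12V shScram against WT shScram (-0.62, adjusted p = 0.0155). Plec, whose product plectin ties keratin filaments to hemidesmosomes, and Src rose in RNA of HrasG12V shEif2b5 against HrasG12V shScram (0.84 and 0.52, adjusted p = 0.0231 and 0.0329). These calls, 1 and 2 of 11, stand beside 7.7% and 13% of all genes called in the same RNA comparisons. Sfn, which encodes 14-3-3 sigma, was not called. Its footprints averaged 2127 ± 384 CPM in HrasG12V shEif2b5, 2069 ± 24.3 in HrasG12V shScram and 1585 ± 235 in WT shScram.

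Among 20 factors reported to act on stress keratin genes, 19 were tested. Junb and Myc footprints rose in HrasG12V shScram against WT shScram (0.94 and 0.78, adjusted p = 0.00203 and 0.0168), and those of Fosl2 fell (-0.62, adjusted p = 0.0303). The same 3 were called in the same directions in HrasG12V shEif2b5 against WT shScram, with the same WT libraries. Of all genes, 1.7% and 0.97% were called in these 2 footprint comparisons. In RNA, Nfe2l2, which encodes the oxidative stress factor NRF2, rose in HrasG12V shScram against WT shScram (0.92, adjusted p = 0.00685) and fell in HrasG12V shEif2b5 against HrasG12V shScram (-0.59, adjusted p = 0.0368), where Krt6a, Krt6b, Krt16 and Krt17 rose. The nuclear receptor genes Thra and Rara fell in HrasG12V shScram against WT shScram (-0.73 and -0.53, adjusted p = 0.0214 and 0.0449). Jund (0.74, adjusted p = 0.0315) and Rara (0.50, adjusted p = 0.043) rose in HrasG12V shEif2b5 against HrasG12V shScram. In RNA the list thus held 1 called higher and 2 lower in the former comparison, where 7.7% of all genes were called. It held 2 higher and 1 lower in the latter, where 13% were called.

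Wound response genes other than keratins were sparse, with 7 of 24 tested in RNA and 15 in footprints. In footprints of HrasG12V shScram against WT shScram, 5 were called higher and 1 lower, where 1.7% of all genes were called and 1.23% called higher. The filter asks for enough reads in as many libraries as a group holds, so genes near 0 in WT passed only through HrasG12V libraries. The number called among those tested against WT is therefore partly set by the filter. Tslp, an epidermal cytokine gene, averaged 19.2 ± 7.28 CPM in HrasG12V shScram against 0.0756 ± 0.131 CPM in WT shScram, and in the same order of groups Ccl20 12.9 ± 0.755 against 0.671 ± 0.291 CPM, Epgn 10.6 ± 2.05 against 2.62 ± 2.13 CPM and S100a9 11.9 ± 1.81 against 1.42 ± 1.43 CPM (adjusted p = 1.3e-06, 3.14e-06, 0.0164 and 0.0202). In footprints of HrasG12V shEif2b5 against WT shScram, 3 of 15 were called higher, where 0.97% of all genes were called. In RNA 1 of 7 was called higher in either HrasG12V group against WT shScram. Of all genes, 0.324% were called there for HrasG12V shEif2b5 and 7.7% for HrasG12V shScram. In HrasG12V shEif2b5 against HrasG12V shScram none of the 7 tested in RNA was called, where 13% of all genes were called. None of the 15 tested in footprints was called either, where 0% of all genes were. The median log2 difference of the tested genes was -0.085 in both kinds. The lowest adjusted p in that comparison was 0.0806 in RNA, for Tslp (log2 -1.10), and in footprints that of Ccl20, which averaged 4.57 ± 0.521 CPM in HrasG12V shEif2b5 and 12.9 ± 0.755 CPM in HrasG12V shScram (adjusted p = 0.13).

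Genes that answer cell dissociation were read because stress keratins were measured after enzyme treatment. Of 13 tested, Egr1 rose (1.07, adjusted p = 0.00602) and Hspa1b fell (-0.68, adjusted p = 0.0255) in RNA of HrasG12V shScram against WT shScram (7.7% of all genes called), and Hspa1b rose (0.60, adjusted p = 0.0315) in HrasG12V shEif2b5 against HrasG12V shScram (13%). Their summed RNA was 604 to 856 CPM in HrasG12V shEif2b5, 448 to 744 CPM in HrasG12V shScram and 509 to 646 CPM in WT shScram, with all 3 groups overlapping. In footprints Egr1 (0.76, adjusted p = 0.0375) and Junb (0.94, adjusted p = 0.00203) rose in HrasG12V shScram against WT shScram, where 1.7% of all genes were called. Junb also rose in HrasG12V shEif2b5 against WT shScram (1.00, adjusted p = 0.00174), where 0.97% were called. The footprint sums were 299.5 to 358 CPM in HrasG12V shEif2b5, 327 to 357 CPM in HrasG12V shScram and 228 to 298.8 CPM in WT shScram. Both HrasG12V groups thus lay above WT, HrasG12V shEif2b5 only just. Stress keratin footprints also lay above WT in both groups. The part of dissociation in the stress keratin differences was not tested.

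Hair follicles hold stress keratins, so hair follicle marker genes were read as well. In RNA of HrasG12V shScram against WT shScram, 3 of 15 were lower (Shh, Ptch1 and Wnt10b), and Trps1 was higher. Among the stress keratins Krt6b and Krt16 were called higher in that comparison, and Krt6a and Krt17 were not called. Of all genes, 7.7% were called there and 4.65% called higher. In RNA of HrasG12V shEif2b5 against HrasG12V shScram, where 5.23% of all genes were called higher, 5 of 15 were higher (Shh, Lhx2, Lef1, Wnt10b and Tbx1), as were the stress keratins. Their summed RNA was 2338 to 2672 CPM in HrasG12V shEif2b5, 1852 to 2200 CPM in HrasG12V shScram and 2563 to 2714 CPM in WT shScram. On this sum WT shScram overlapped HrasG12V shEif2b5, as it did for Krt17, while it lay below that group for Krt6a, Krt6b and Krt16. In footprints Shh, Ptch1 and Foxi3 were lower in HrasG12V shScram (1.7% of all genes called) and Foxi3 in HrasG12V shEif2b5 (0.97%), each against WT shScram. Their footprint sums were 1158 to 1346 CPM in HrasG12V shEif2b5, 1137 to 1292 CPM in HrasG12V shScram and 1459.9 to 1495 CPM in WT shScram, with WT above both. The part of hair follicle content in the RNA difference of the stress keratins between the HrasG12V groups was not tested.

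Other lists gave fewer calls. Of 11 spinous and granular markers, Krtdap was higher in RNA of HrasG12V shScram against WT shScram and Krtdap, Dsg1a and Flg2 were lower in HrasG12V shEif2b5 against HrasG12V shScram. Of 8 melanocyte markers, Tyr and Tyrp1 were higher in RNA of HrasG12V shScram against WT shScram and Tyrp1 lower in HrasG12V shEif2b5 against HrasG12V shScram. The calls of both lists stand beside 7.7% and 13% of all genes called in these RNA comparisons, in that order. No basal layer, Merkel cell, dermal fibroblast, immune or erythroid marker that was tested was called in RNA or footprints, and no endothelial marker passed the filter in RNA or was called in footprints. Dermal fibroblast markers summed to 469.7 to 566 CPM in RNA of HrasG12V shEif2b5, 520.2 to 1064 CPM in HrasG12V shScram and 359 to 2129 CPM in WT shScram, and in WT they were spread far more than Krt6a+Krt6b. Immune markers summed to at most 24.8 CPM, endothelial to at most 11.3 CPM and erythroid to at most 21.6 CPM in any RNA library, with 1 of 8 immune markers at 0 in each group and 4 or 5 of 6 erythroid markers at 0.

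The genes whose levels ran most like the stress keratins were ranked by the lower of 2 Pearson correlations of log2 CPM, 1 over the 9 RNA and 1 over the 9 footprint libraries, among 8141 genes. For Krt6a+Krt6b these were Igf2bp2 (lower r = 0.86), Tpm2 (0.86), Specc1 (0.84), Lrrfip1 (0.82) and Rmnd5b (0.82). For Krt16 they were Igf2bp2 (0.88), Specc1 (0.87), Tpm2 (0.86), Lrrfip1 (0.85) and Atf4 (0.84). The levels of these genes spanned far less: Igf2bp2 RNA averaged 82.8 ± 12.1 CPM in HrasG12V shEif2b5, 73.5 ± 4.32 in HrasG12V shScram and 51.4 ± 3.87 in WT shScram. Krt17 ran with other genes, Id3 (0.87), Stk40 (0.82), Eef1d (0.81), the basal keratin Krt14 (0.81) and Clpp (0.80), and shared none of its 5 with Krt6a+Krt6b or Krt16. Krt17 also shares 16.5% of its 28-base coding windows with Krt14. The libraries behind each correlation fall into 3 conditions and share their scaling, so these values are descriptions.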

How the data were processed

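Libraries came from epidermal cells of embryonic day 18.5. Per the submitters' processing notes, reads went through Bowtie, TopHat2 and HTSeq on mm10, and per the file headers the deposited values are raw read counts over coding sequence per gene. Versions, strand and treatment of reads with several matches are not given in the sources used here. All libraries of the table were used.

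Genes passed filterByExpr (minimum count 10, minimum total 15), and counts were scaled by TMM within each kind. edgeR 4.0.16 quasi-likelihood tests (glmQLFit with robust dispersion, limma 3.58.1, R 4.3.3) were fitted to the 9 libraries of a kind and, for translation efficiency, to all 18 as condition by kind. Benjamini-Hochberg adjustment covered all genes tested, and an adjusted p under 0.05 was a call. A second fit replaced Krt6a and Krt6b by their sum. The fits were also run on simulated counts with known changes. Replicate numbers were not used as a block. Libraries of a group differed by more than sampling noise. Counts carry no molecular identifiers, so depth sets counting error only, and low values such as Krt6b in WT have the largest. Ratios were compared with two-sided exact permutation tests, in which 3 against 3 cannot go below 0.1.

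Positions and coding sequences are from GENCODE annotation of GRCm38 (mm10), with 98.76% of 20655 symbols matched, and the promoter table from RefSeq held 0 of the 4 members. The members and the gene lists were chosen with earlier results of these data known. Named genes are the members in every comparison, up to 4 called genes with the smallest p per keratin, pathway or dissociation list (or up to 2 given as values), marker genes that were called, and the 5 genes most like Krt6a+Krt6b, Krt16 and Krt17. Alternatives were other scalings, filters, DESeq2 1.42.0, limma voom, fits of 2 conditions, GC and length offsets, a replicate block, and each library left out.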

Additional observations from a re-analysis of the deposited data

How the results depend on the processing

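In RNA, Krt6b, Krt16 and Krt6a+Krt6b kept direction and call in all 3 comparisons under every alternative that gave a test, and so did Krt6a for HrasG12V shEif2b5 against WT shScram. Depth limits Krt6a and Krt6b in WT most. All values below are log2 differences with the adjusted p in brackets, and their causes were not tested.

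For HrasG12V shScram against WT shScram in RNA, Krt6a passed without a filter at 1.08 (0.0239), with DESeq2 at 1.08 (0.0305), with 2 conditions only at 1.08 (0.047), with the replicate block at 1.11 (0.0475) and with GC and length offsets at 1.21 (0.0476). Krt17 turned to 0.049 with those offsets (0.925) and to 0.19 among the shallower libraries. For HrasG12V shEif2b5 against HrasG12V shScram, Krt17 missed the threshold at 0.42 with the offsets (0.216), and without HrasG12V shScram RNA libraries 1 and 3 Krt17 was 0.60 (0.429) and Krt6a 1.27 (0.335).

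In footprints of HrasG12V shScram against WT shScram, 2 conditions only gave Krt16 2.45 (8.54e-06), Krt6b 2.90 (0.00124), Krt6a+Krt6b 2.01 (4.08e-05), Krt6a 1.02 (0.0267) and Krt17 0.66 (0.0607), and DESeq2 gave Krt16 2.47 (0.00572), Krt6b 2.93 (0.000124) and Krt6a+Krt6b 2.01 (0.00421). For HrasG12V shEif2b5 against WT shScram, DESeq2 called Krt16 at 4.18 (1.3e-08) and Krt6a at 3.18 (6.32e-06), and limma voom Krt16 at 3.84 (0.00653) and Krt6a at 2.91 (0.037). There Krt6b and Krt6a+Krt6b were lost with 2 conditions only at 5.19 (0.119) and 4.25 (0.128), and with the replicate block at 5.14 (0.0633) and 4.18 (0.0721). For HrasG12V shEif2b5 against HrasG12V shScram, DESeq2 called Krt6a+Krt6b at 2.24 (0.0142). In translation efficiency, GC and length offsets turned Krt6b to -0.0087 for HrasG12V shScram against WT shScram.

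Counts of genes called moved as well. With 2 conditions only they were 876, 123 and 389 in RNA for HrasG12V shEif2b5 against HrasG12V shScram, HrasG12V shEif2b5 against WT shScram and HrasG12V shScram against WT shScram, and without HrasG12V shScram RNA libraries 1 and 3 they were 17, 124 and 47. GC and length offsets gave 630 in RNA and 120 in translation efficiency for the first of these and 415 in RNA for the last. For HrasG12V shEif2b5 against WT shScram, RNA counts were 64 with DESeq2 and 72 without a filter, and footprint counts 229 with DESeq2, 216 without a filter, 184 with the replicate block, 59 with limma voom and 44 with 2 conditions only. In footprints of HrasG12V shEif2b5 against HrasG12V shScram, DESeq2, no filter and the replicate block each called 1 gene.

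With 1 library left out at a time, RNA differences ranged from 0.56 to 0.80 for Krt17 and 1.17 to 1.79 for Krt6a in HrasG12V shEif2b5 against HrasG12V shScram, and from -0.33 to 0.12 for Krt17 and 0.94 to 1.27 for Krt6a in HrasG12V shScram against WT shScram. Footprint ranges for HrasG12V shEif2b5 against HrasG12V shScram were 1.396 to 2.17 for Krt16, 1.49 to 2.55 for Krt6a, 1.92 to 2.66 for Krt6b and 1.98 to 2.63 for Krt6a+Krt6b. For HrasG12V shEif2b5 against WT shScram they were 3.85 to 4.62 for Krt16, 0.68 to 1.03 for Krt17, 2.52 to 3.58 for Krt6a, 4.82 to 5.56 for Krt6b and 3.99 to 4.63 for Krt6a+Krt6b. For HrasG12V shScram against WT shScram they were 2.26 to 2.63 for Krt16, 0.52 to 0.87 for Krt17, 2.65 to 3.17 for Krt6b and 1.82 to 2.17 for Krt6a+Krt6b.

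Translation efficiency ranged from 1.25 to 2.02 for Krt16 and -0.043 to 1.01 for Krt6a in HrasG12V shEif2b5 against WT shScram. In HrasG12V shScram against WT shScram it ranged from 0.93 to 1.33 for Krt16, 0.54 to 1.01 for Krt17, -0.24 to 0.11 for Krt6a, -0.23 to 0.39 for Krt6b and -0.23 to 0.14 for Krt6a+Krt6b. Counts of genes called ranged from 197 to 3150, 12 to 80 and 189 to 2431 in RNA, 0 to 31, 37 to 407 and 73 to 559 in footprints, and 7 to 1350, 0 to 18 and 11 to 693 in translation efficiency, each for HrasG12V shEif2b5 against HrasG12V shScram, HrasG12V shEif2b5 against WT shScram and HrasG12V shScram against WT shScram. The highest RNA counts came without HrasG12V shScram library 2.

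Deviations from the group mean in same-numbered libraries of different conditions correlated from -0.30 to 0.29 in RNA and -0.14 to 0.22 in footprints. Differently numbered libraries gave -0.28 to 0.29 and -0.27 to 0.22. With 3 libraries a group, these values cannot decide whether same-numbered libraries share an origin. RNA was not set against footprints here. The block changed no member's call beyond those given above.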
